A study of Mus musculus with 4 samples.

Results

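The 10 genes described here encode parts of the machinery that transcribes ribosomal and transfer RNA. They were chosen by name, as every probe set whose annotation carries 1 of the symbols Polr1a, Polr1b, Polr1c, Polr1e, Rrn3, Ubtf, Polr3d, Polr3g, Polr3k or Polr3e and no other symbol. The names were picked with earlier results of these data known. All 10 of the 18194 named genes on the array were found, with 24 probe sets between them. A probe set is a group of short probes on the array that read the same transcript. Expression was measured on 4 arrays, each with RNA from the colon of male mice, in 2 pairs. In the first pair, crypt cells came from mice with a fusion of histone H2B and green fluorescent protein (H2B-GFP) under a tetracycline-responsive element. All crypt cells were labelled with doxycycline for 7 days, and the label was chased for 2 days without the drug. Cells that kept it (GFPhigh, non-proliferating) and cells that diluted it by dividing (GFPlow, proliferating) were separated by flow cytometry. In the second pair, whole isolated crypts came from mice with a doxycycline-inducible β-catenin gene. They were left untreated (Dox minus) or drank doxycycline at 2.0 mg/ml for 5 days (Dox plus). The promoter that drives the doxycycline-responsive activator, the strain and age of the mice and the number of mice behind an array are not stated in the sources used here. The untreated mice had neither the drug nor the induced gene, so the effects of doxycycline and of β-catenin cannot be told apart. Each group was 1 array, so no difference below has a replicate check or a test. All values are log2 values as deposited, differences are log2 differences within a pair, and a value of 5 was set as the floor of the measurable range.

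RNA polymerase I transcribes a single kind of gene, the tandem ribosomal DNA repeats in the nucleolus, and its product is processed to the large and small ribosomal RNAs. It is recruited by the upstream binding factor UBF (Ubtf) and the selectivity factor SL1, and it initiates only when bound by TIF-IA (Rrn3), a factor controlled by growth signals. RNA polymerase III makes the smallest ribosomal RNA, transfer RNAs and other short RNAs, and it is recruited by TFIIIA, TFIIIC and TFIIIB. Both enzymes supply dividing and growing cells with ribosomes and transfer RNAs. The transcription factor Myc, a target of Wnt signalling in the intestinal crypt, is known to promote transcription by both.

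RefSeq's table (GRCm38.p6) held promoter windows for 9 of the 10 genes, from 250 bases before to 50 bases after an annotated start, and Polr3d was not among them. The windows of 4 genes are shown 5′ to 3′ on the strand of the gene. Polr1a and Polr3g had the largest differences in the first and the second pair, and Rrn3 and Polr3e were the genes whose windows held CACGTG, the palindromic E-box to which Myc and Max bind. Capitals mark matches on either strand to CACGTG, to its E-box variant CACGCG, to the TCF-type sequence CTTTGAT, to the E2F-type sequences TTGGCGC or TTCGCGC, or to GTTCGANNC, the core of the B box inside transfer RNA genes.
Polr1a, chr6:71908803-71909102, plus strand: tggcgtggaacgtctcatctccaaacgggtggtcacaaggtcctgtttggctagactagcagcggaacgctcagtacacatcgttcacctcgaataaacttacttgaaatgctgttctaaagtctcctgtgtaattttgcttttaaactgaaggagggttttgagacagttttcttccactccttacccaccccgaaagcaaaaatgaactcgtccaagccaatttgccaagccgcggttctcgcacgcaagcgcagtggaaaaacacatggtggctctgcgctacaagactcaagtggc
Polr3g, chr13:81710964-81711263, minus strand: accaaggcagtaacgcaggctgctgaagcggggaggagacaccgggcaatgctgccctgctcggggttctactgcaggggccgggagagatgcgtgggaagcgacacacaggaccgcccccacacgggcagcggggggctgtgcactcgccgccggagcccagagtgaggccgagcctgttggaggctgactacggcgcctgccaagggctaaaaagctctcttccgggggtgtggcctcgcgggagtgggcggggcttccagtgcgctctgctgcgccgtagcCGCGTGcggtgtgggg
Rrn3, chr16:13780449-13780748, plus strand: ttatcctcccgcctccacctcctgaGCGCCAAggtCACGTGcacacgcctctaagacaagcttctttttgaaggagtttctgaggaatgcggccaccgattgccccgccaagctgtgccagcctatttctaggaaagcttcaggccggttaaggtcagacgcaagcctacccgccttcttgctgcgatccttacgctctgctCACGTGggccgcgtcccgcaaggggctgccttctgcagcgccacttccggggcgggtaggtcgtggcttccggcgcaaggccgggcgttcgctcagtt
Polr3e, chr7:120917528-120917827, plus strand: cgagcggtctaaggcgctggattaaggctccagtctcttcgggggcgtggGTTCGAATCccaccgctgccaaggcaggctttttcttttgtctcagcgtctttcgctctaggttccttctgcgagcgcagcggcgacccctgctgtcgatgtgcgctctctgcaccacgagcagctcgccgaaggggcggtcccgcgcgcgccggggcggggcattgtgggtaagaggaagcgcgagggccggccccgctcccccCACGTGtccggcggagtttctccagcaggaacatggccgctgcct

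Rrn3 held CACGTG at 215 and at 48 bases before its start, and Polr3e held it 5 bases after its start. The 9 genes had 14 windows, 6 of them of Ubtf. CACGTG occurred in 2 of the 9 genes and 2 of the 14 windows. It occurred in 7.15% of all 32851 windows of this length, or 10.2% of the 10406 windows of genes measured here. The related CACGCG occurred in 5 genes (Polr1c, Polr1e, Ubtf, Polr3g and Polr3k) and 6 of the 14 windows. Its share was 9.27% of all windows and 17.2% of those of measured genes. CTTTGAT and TTCGCGC occurred in 0 of the 9 genes. Their shares were 3.73% and 1.59% of all windows, and 2.45% and 3.01% of those of measured genes. TTGGCGC lay in 2 of the 14 windows, of Rrn3 and Ubtf, against 2.45% of all windows and 4.31% of those of measured genes. The window of Polr1a held none of the 6 sequences. A match describes letters in a window, and binding was not measured.

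The first comparison asked how these genes differ between dividing and non-dividing crypt cells. Polr1a, the catalytic largest subunit of polymerase I, was the only one of the 9 measured genes that lay 2-fold or more higher in the dividing cells, and 0 lay 2-fold or more lower. Of the 9381 genes measured in this pair, 8.81% reached 2-fold in favour of GFPlow and 4.3% in favour of GFPhigh. Values were above 0 for 7 of the 9 genes, against 53.2% of all measured genes, and for 6 of 9 after quantile normalization or a loess correction. Their median difference was 0.39, against 0.04 over all measured genes. In bulk RNA, fewer cells of a type and less RNA per cell cannot be told apart. The cell cycle genes fixed for this comparison (Mki67, Top2a, Cdk1, Plk1, Mcm2, Mcm5 and Pcna) moved with it, 6 of 7 being at least 2-fold higher in GFPlow with a median of 2.31, and their part in the result was not tested.

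Polr1a read 5.92 on GFPhigh and 8.12 on GFPlow through its strongest probe set. The difference of 2.20 is 4.59-fold, and 124 genes, 1.32% of those measured, differed by as much or more in that direction. The other 4 probe sets of Polr1a lay under the floor on both sorted arrays, between 3.14 and 4.33, so the value rests on 1 probe set. Polr1b, the second largest subunit and part of the active site, read 6.97 on GFPhigh and 7.77 on GFPlow, a difference of 0.80 (1.74-fold). Polr1e, the PAF53 subunit, which contacts UBF, read 5.56 and 6.30 in the same order. Its difference was 0.74, and a second probe set gave 0.75. Both readings of Polr1e on GFPhigh lay close above the floor.

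The initiation factor Rrn3 read 7.71 on GFPhigh and 8.30 on GFPlow, a difference of 0.59 (1.51-fold). Ubtf, an HMG-box protein that binds and bends ribosomal DNA, read 6.35 and 6.34 through 1 probe set and 7.80 and 7.76 through the other. Its differences of -0.02 and -0.04 were the smallest of the polymerase I genes. The 5 polymerase I genes had a median of 0.74, with Polr1a alone past 2-fold. Polr1c, a core subunit that polymerases I and III share, read 10.94 and 11.20, a difference of 0.26, and its second probe set gave 0.39.

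The 3 measured polymerase III genes had a median of 0.01 in this pair. Polr3e, the RPC5 subunit, which pairs with RPC4, read 7.32 on GFPhigh and 7.71 on GFPlow, a difference of 0.39. Polr3g, the RPC7α subunit that belongs to the trimer contacting TFIIIB, read 7.25 and 7.27. Its difference of 0.01 became -0.05 after quantile normalization or a loess correction. Polr3k, a small subunit involved in termination, read 10.82 and 10.66 through its strongest probe set, a difference of -0.16. The other measured probe sets of Polr3k gave -0.01, -0.03 and 0.83, so the mean over its 4 measured probe sets was 0.16. Polr3d, the RPC4 subunit, was under the floor on all 4 arrays, with probe sets between 2.80 and 4.84, and is left out of every count.

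**Figure D1:**
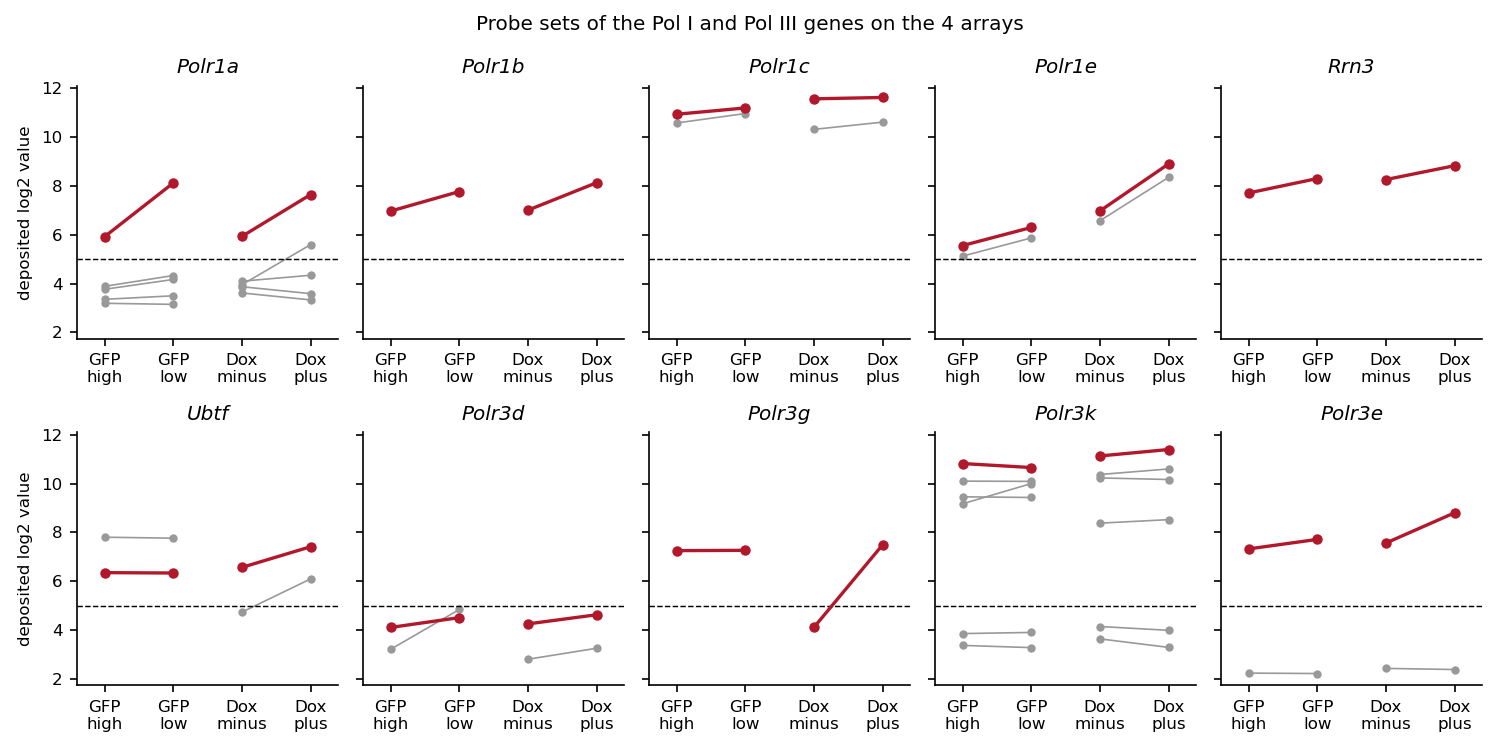
Deposited log2 values (vertical axis) of all 24 probe sets of the 10 genes on the 4 arrays (horizontal axis), with a line joining the arrays of a pair. Red marks the strongest probe set by its 4-array mean, grey the others, and the dashed line the floor of 5; each group is 1 array. Polr1a is steep in both pairs, Polr3g is flat between the sorted arrays and lies under the floor on Dox minus alone.

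The second comparison asked how the same genes differ between crypts after 5 days of doxycycline and untreated crypts. All 9 measured genes had higher values in Dox plus, against 55% of all 9537 genes measured in this pair, and 5 passed 2-fold. Those 5 were Polr3g, Polr1e, Polr1a, Polr3e and Polr1b. The share of measured genes past 2-fold was 6.93% in favour of Dox plus and 5.35% in favour of Dox minus, where 0 of the 9 lay. The median of the 9 was 1.12, against 0.06 over all measured genes. Scaling moved the background: a loess correction gave 510 genes higher and 617 lower in place of 661 and 510. Under it, and after quantile normalization, all 9 genes stayed above 0 and 4 stayed past 2-fold, with Polr1b at 0.96 and 0.98. Polr1c was nearly flat, at 0.05 as deposited and at 0.01 and 0.04 under these 2 corrections in the same order.

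Among polymerase I genes, Polr1e read 6.97 on Dox minus and 8.90 on Dox plus. The difference of 1.92 is 3.80-fold, and 102 genes, 1.07% of those measured, differed by as much or more. Its second probe set gave 1.78, so both readings of the gene were past 2-fold. Polr1a read 5.93 on Dox minus and 7.64 on Dox plus, a difference of 1.71 (3.28-fold), which 1.68% of measured genes reached. A second probe set of Polr1a reached the floor on Dox plus only, at 5.59 against 3.95, which gave a difference of at least 0.59. The mean over the measured probe sets of Polr1a was 1.15, a lower bound because it includes that bound. Polr1b read 7.01 and 8.13, a difference of 1.12 (2.18-fold).

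Read by their strongest probe sets, the factors that bring polymerase I to its promoter differed by less than 2-fold. Ubtf read 6.57 on Dox minus and 7.41 on Dox plus, a difference of 0.85 (1.80-fold). Its second probe set read 4.73 and 6.09, a difference of at least 1.09, since Dox minus lay under the floor. That probe set was at 7.80 and 7.76 on the sorted arrays, while the first stayed between 6.34 and 6.57 on GFPhigh, GFPlow and Dox minus. Rrn3 read 8.26 and 8.83, a difference of 0.57 (1.48-fold), close to its 0.59 in the sorted pair. The shared subunit Polr1c read 11.57 and 11.62, a difference of 0.05, and its second probe set gave 0.30. The 5 polymerase I genes had a median of 1.12, with 3 past 2-fold and 5 above 0.

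Polr3g stood apart among the polymerase III genes. It read 7.49 on Dox plus and 4.11 on Dox minus, under the floor, so its difference was at least 2.49 (at least 5.61-fold). A total of 38 genes, 0.398% of those measured, had a difference or bound as large. With a floor of 4, which Dox minus exceeded, the difference was 3.38, and with a floor of 6 the bound was 1.49. Polr3g had 1 probe set and read 7.25 and 7.27 on the sorted arrays, so Dox minus was the only array of the 4 on which it was not measured. Its paralog Polr3gl, which encodes the alternative RPC7β subunit, read 7.77 on Dox minus and 8.38 on Dox plus, a difference of 0.61, and differed by 0.19 in the sorted pair.

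Polr3e read 7.57 on Dox minus and 8.80 on Dox plus, a difference of 1.24 (2.36-fold), which 4.12% of measured genes reached. Its only other probe set lay under the floor on all 4 arrays, between 2.22 and 2.43. Polr3k read 11.13 and 11.40, a difference of 0.26, and its 3 other measured probe sets gave 0.23, 0.14 and -0.07. Of the 16 measured probe sets of the 9 genes, 15 were above 0 and 7 past 2-fold in this pair, against 56.6% and 7.88% of all 16005 measured probe sets with 1 symbol. In the sorted pair, 10 of 15 were above 0 and 1 was past 2-fold, against 51.3% and 8.31% of 16025.

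Set side by side, Polr1a was at least 2-fold higher in both GFPlow and Dox plus, as were 183 of the 9023 genes measured in both pairs. Polr1b, Polr1e, Polr3g and Polr3e were past 2-fold in Dox plus alone, as were 394 of the 9023 genes (4.37%). Of the 9 genes 0 were past 2-fold in GFPlow alone, against 600 of the 9023 (6.65%). The difference in the Dox pair was larger than that in the GFP pair for 6 of the 9 genes, against 53% of all genes measured in both. Polr1a, Polr1c and Rrn3 were the exceptions. The pairs differ in mice, transgene and cell preparation, and whether their difference is larger than error was not tested.

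**Figure D2:**
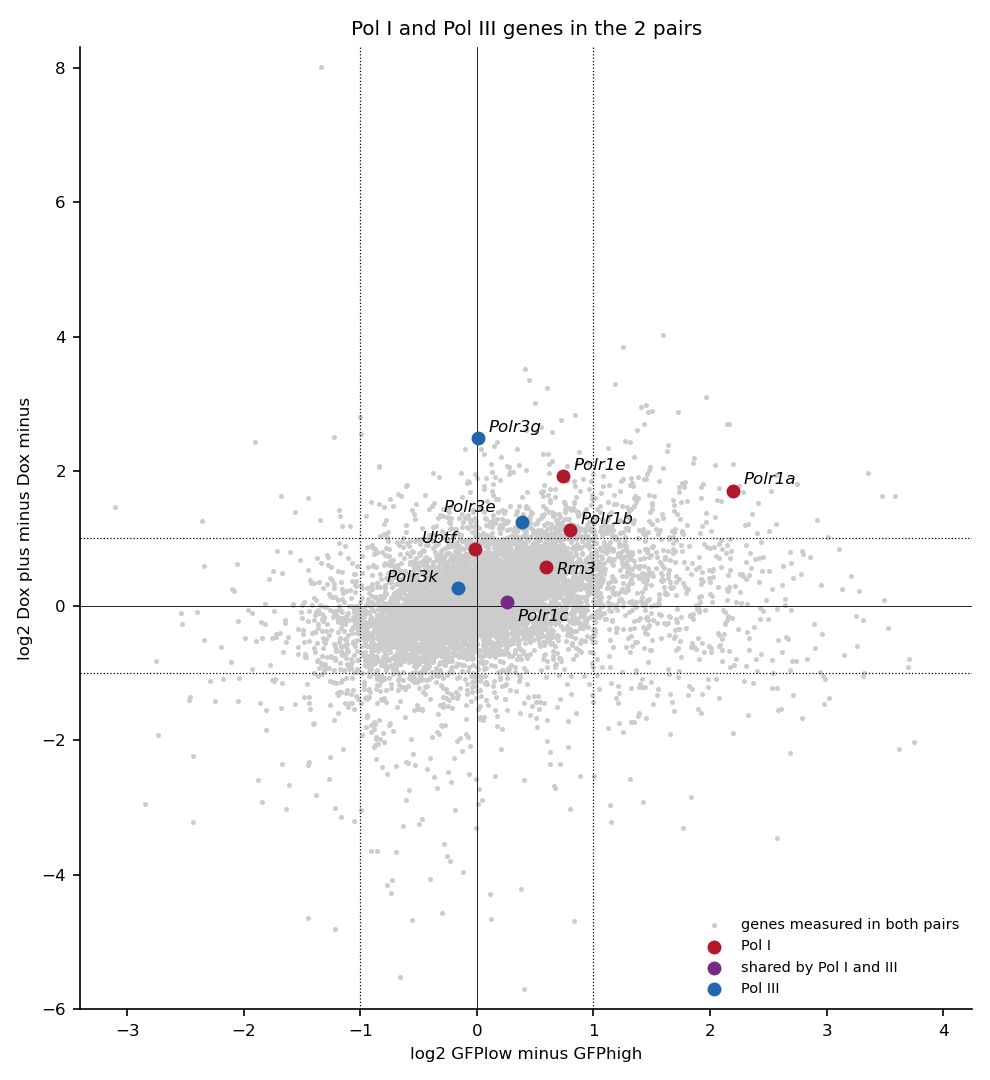
Log2 difference GFPlow minus GFPhigh (horizontal axis) against log2 difference Dox plus minus Dox minus (vertical axis) for the 9023 genes measured in both pairs (grey) and the 9 measured polymerase genes (coloured by enzyme), with dotted lines at 2-fold. Polr1a lies at 2.20 and 1.71, Polr3g at 0.01 (-0.05 after either scaling) and at least 2.49, and all 9 lie above 0 on the vertical axis.

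The remaining parts of both enzymes had smaller medians than the genes above in the Dox pair. Both the genes above and these lists were chosen with earlier results of these data known, so their medians are not an independent comparison. The 9 other polymerase I genes were Polr1d, which polymerase III shares, Twistnb, Cd3eap, Znrd1, Ttf1 and the SL1 subunits Taf1a to Taf1d. Of these, 8 were above 0 in Dox plus, with a median of 0.17 and Polr1d at -0.02. Cd3eap, the PAF49 partner of PAF53, alone was past 2-fold, at 6.06 on Dox minus and 7.19 on Dox plus (1.13). In the sorted pair the same list had 8 of 9 above 0, a median of 0.47 and 0 past 2-fold, led by Taf1b (0.81) and the termination factor Ttf1 (0.78). Polr2e, Polr2f and Polr2h, the subunits common to all 3 nuclear polymerases, were above 0 in both pairs, with medians of 0.79 in GFPlow and 0.59 in Dox plus. Polr2h was past 2-fold in Dox plus, at 9.37 and 10.66 (1.29).

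The other polymerase III subunits (Polr3a, Polr3b, Polr3c, Polr3f, Polr3gl and Crcp) were all above 0 in Dox plus, with a median of 0.36 and 0 of 6 past 2-fold. In the sorted pair, 3 of 6 were above 0, with a median of 0.06 that Polr3b (0.79) exceeded most. The initiation factors of polymerase III, listed together with its repressor Maf1, showed no common direction. Of 17, 16 were measured in the sorted pair, 8 above and 8 below 0, with a median of 0.02. In the Dox pair, 9 of 15 were above 0, with a median of 0.17, and 0 were past 2-fold in either pair. Gtf3a, the factor specific to the smallest ribosomal RNA, had the largest difference of these in the sorted pair (0.98) and differed by 0.63 in Dox plus. The TFIIIB subunit Brf1 went in opposite directions, at -0.57 in GFPlow and 0.62 in Dox plus, while its relative Brf2 was at 0.90 and 0.55. The repressor Maf1 differed by -0.06 and 0.22.

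The 7 subunits found only in polymerase II had medians of 0.47 in GFPlow and 0.26 in Dox plus, with 0 past 2-fold in either pair. Polr2a, its largest subunit, differed by 0.44 and 0.86. Polr1a, its counterpart in polymerase I, differed by 2.20 and 1.71. Polr3a, the counterpart in polymerase III, differed by -0.27 and 0.31.

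Among regulators and partners of ribosomal DNA transcription, Myc read 8.0 on GFPhigh, 9.46 on GFPlow, 8.81 on Dox minus and 11.69 on Dox plus. Its differences were 1.46 and 2.88, and it was the only one of the 12 measured that was past 2-fold in GFPlow. In Dox plus, the nucleolar proteins Ncl (1.17) and Mybbp1a (1.04) were past 2-fold too, and Npm1 (0.98) and the helicase Ddx21 (0.95) lay just under. These values lie near the cut and were not read again under the other scalings. The retinoblastoma family, which restrains both polymerases, gave -0.72 for Rb1, 0.03 for Rbl1 and 0.23 for Rbl2 in GFPlow. In Dox plus the values were -0.09, -0.82 and -0.51. The list had medians of 0.20 in GFPlow and 0.63 in Dox plus. Mycn was under the floor on all 4 arrays.

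**Figure D3:**
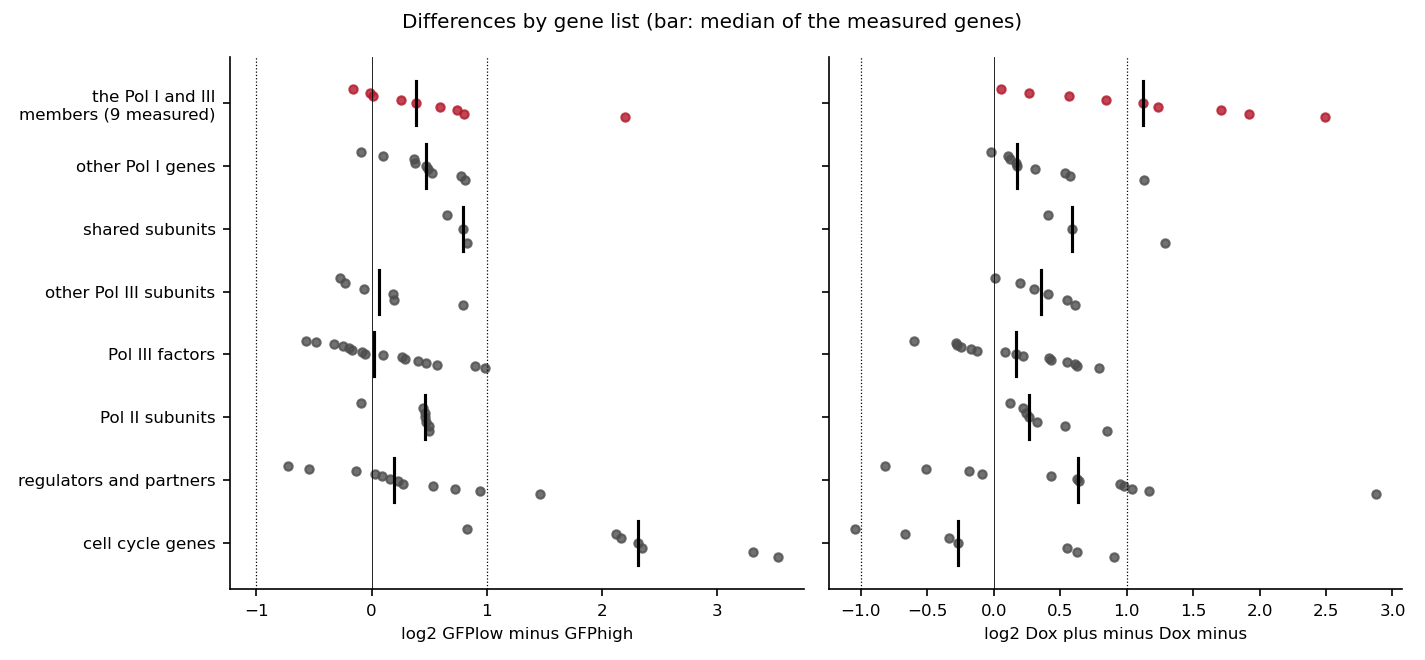
Log2 differences of each measured gene (points) by list (rows), GFPlow minus GFPhigh on the left and Dox plus minus Dox minus on the right, with the median of a list as a bar and dotted lines at 2-fold. The median of the polymerase genes is 0.39 on the left and 1.12 on the right. That of the cell cycle genes is 2.31 on the left and -0.27 on the right, where 3 of 7 lie above 0.

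The genes whose 2 differences lay nearest to those of Polr1a, by Euclidean distance among 8570 genes above the floor on all 4 arrays, were Srm, Wdr12, Best2, Nap1l1 and Abhd14a. Srm, the enzyme that makes spermidine, was nearest at 2.24 and 1.78 (distance 0.08). Wdr12, a factor of large ribosomal subunit assembly, followed at 2.29 and 1.70 (0.09). Those nearest to Polr1e, which had the largest Dox difference of the 8 polymerase genes above the floor on all arrays, were Lsm10, Cad, Thumpd1, Mettl17 and Prmt3. Lsm10 lay at 0.70 and 1.92 (distance 0.04), and Cad, the enzyme of the first steps of pyrimidine synthesis, at 0.77 and 1.85 (0.08). Each likeness rests on 2 differences from 4 arrays.

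All 8 epithelial markers (Epcam, Cdh1, Krt8, Krt18, Krt20, Vil1, Cdx2 and Cldn7) read between 10.25 and 15.54 on every array. In the sorted pair all 8 were lower in GFPlow, with a median of -0.19. Krt20 (-0.84), a marker of mature colonocytes, and Vil1 (-0.74) differed most. The part of this shift in the sorted-pair differences was not tested. Of 9 leukocyte markers, 1 reached the floor on GFPhigh, 3 on GFPlow, 5 on Dox minus and 4 on Dox plus. Their summed level (log2 of the sum) was 6.68, 7.47, 9.34 and 8.41 in the same order. Of 10 stromal markers, 1, 2, 2 and 1 reached the floor, with summed levels of 7.11, 7.21, 8.83 and 7.49. The T cell marker Cd3e, the B cell marker Cd79a, Col1a1, Col1a2, Des, Acta2, Pecam1 and the red blood cell genes Hba-a1 and Alas2 were under the floor on all 4 arrays. The summed leukocyte and stromal levels were lower in Dox plus than in Dox minus, although Lyz2 read 5.59 on Dox minus and 6.30 on Dox plus and Cd68, under the floor on both, 2.66 and 3.41. Jchain (-2.53, a bound), Laptm5 (-1.53) and Vim (-1.78) were past 2-fold lower in Dox plus. Vim alone read 8.43 on Dox minus and 6.64 on Dox plus, so the stromal sums on these arrays rest largely on this gene. Both sums also include genes under the floor. The part of leukocytes and stroma in the differences of the polymerase genes was not tested. The cell cycle genes had a median of -0.27 in the Dox pair, opposite in sign to that of the polymerase genes, but they were split. Above 0 were 3 of 7, Mcm2 (0.91), Pcna (0.63) and Mcm5 (0.56). Below 0 were Plk1 (-1.04, past 2-fold lower), Mki67 (-0.67), Cdk1 (-0.34) and Top2a (-0.27). Ctnnb1, the gene of β-catenin, differed by -0.11, 0.21 and 0.66 between Dox plus and Dox minus in its 3 probe sets, and whether these read the transgene is not stated in the sources used here.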

How the data were processed

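Total RNA of 4 samples was hybridised to arrays, 1 array per group, and no array was pooled or left out. The authors deposited log2 values per probe set that GCRMA produced, per the submitters' processing notes. GCRMA subtracts a background modelled from probe sequence, so low values carry little information. Its version and the arrays processed together are not stated in the sources used here. The 45101 probe sets ran from 0.47 to 16.27, and 17412, 17462, 16945 and 16982 reached log2 5 on GFPhigh, GFPlow, Dox minus and Dox plus. Precision is limited by the array number.

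Of the probe sets, 34958 had 1 gene symbol in the platform annotation, 932 several and 9211 none. Those with several or none were not used. Each gene was read from its strongest probe set by the 4-array mean. It was measured in a pair when 1 of its 2 arrays reached 5, lower values were set to 5, and such a difference is a bound. A difference of 1 (2-fold) was counted. No test between groups was run. The counting was tested on simulated data without noise, with differences planted only in genes well above the floor. That checks the arithmetic and not the handling of bounds. All 10 genes are named. From the other lists, genes with the largest differences and those past 2-fold are named, with Polr2a, Polr3a, Polr3gl, Brf1, Maf1 and the retinoblastoma family chosen after their values were seen. Members and lists were chosen with earlier results of these data known. The motif GTTCGANNC was added after the windows were read. The alternatives were floors of 4 and 6, no floor, quantile normalization within pairs, loess correction of the differences (span 0.4), the mean of measured probe sets, and leaving out less specific probe sets (suffix _x_at, _s_at or _a_at). Calculations used pandas 2.3.3, numpy 2.4.6 and statsmodels 0.14.6. Promoter windows are from RefSeq (GRCm38.p6).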

Additional observations from a re-analysis of the deposited data

How the results depend on the processing

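Under 7 alternatives, the median of the genes ranged from 0.30 to 0.59 in the GFP pair and from 0.96 to 1.12 in the Dox pair. The count past 2-fold was 1 in every alternative of the GFP pair and 4 or 5 in the Dox pair. It was 4 under quantile normalization and loess, where Polr1b read 0.98 and 0.96, and 4 of 7 measured without the less specific probe sets, which leaves Polr3e and Ubtf unmeasured. Of 122 values of single genes under the alternatives, 119 moved by less than 1.5-fold, 3 by more and 0 changed sign after being past 2-fold. The 3 were Polr3g in the Dox pair, at 3.38 with a floor of 4 or none and 1.49 with a floor of 6. Single genes of the other lists have no such values, so calls near 2-fold there, as for Cd3eap and Mybbp1a, are unchecked. No paired analysis was possible because each group has 1 array. Signal over background limits Polr3d, 4 of 5 probe sets of Polr1a in the sorted pair, and Polr3g on Dox minus.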

Other observations

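The window upstream of Polr3e, a polymerase III subunit gene, overlaps a gene that polymerase III itself transcribes. RefSeq (GRCm38.p6) places the leucine transfer RNA gene n-TLaag4 at chr7:120917517-120917598, and 71 of its bases lie in the printed window. Its end is 180 bases before the annotated start of Polr3e. The B-box core GTTCGANNC begins 200 bases before that start, on the strand of Polr3e, and is printed in capitals as GTTCGAATC. The same core was found in 0.843% of all 32851 windows and in 1.25% of those of measured genes. Among the 9 genes with a window it was also found in Polr1b, on the opposite strand 181 bases before the start, where the table lists no transfer RNA gene. This sequence was searched after the windows were seen. The array values do not report transfer RNA, so n-TLaag4 was not measured. In the same table, the window of Polr1c overlaps the gene Yipf3 and that of Polr1b the long non-coding RNA gene Gm46764.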
